A study of Macaca mulatta with 31 samples.

Results

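An Ensembl gene identifier ends in a number, and the numbers are given out in the order in which gene models are made, so a high number marks a gene model that entered the annotation late and says nothing about what the gene does. The genes described here are the 200 most abundant genes of single rhesus macaque blastocysts whose macaque identifier carries a number of 50000 or more, ranked by the median over all 31 blastocysts of the CPM (the gene's count per 1000000 counts of its blastocyst). They were taken from 15352 such high-numbered genes and 35395 genes in the table, and the ranking used these measurements, so their high level is how they were chosen and is not a result. The lowest member was the zinc finger gene ZNF296 at a median of 92.99 CPM, and the first gene left out was SUPV3L1, a mitochondrial RNA helicase, at 92.5 CPM. A symbol was found for 190 of the 200 members, and many of these are well-known genes of basic cell functions. The other 10 could be given by identifier alone, and 1 of them was the member of second-highest median CPM.

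The study followed female rhesus macaques through 2 cycles of controlled ovarian stimulation (COS). The 14 SCD blastocysts came from COS #1, while the females ate a standard chow diet. COS #2 gave the 17 WSD blastocysts, taken after months on a high-fat Western-style diet from the females that had given SCD blastocysts and from others besides. In the SCD group 6 were labelled fragmented and 8 non-fragmented, against 9 and 8 in the WSD group, which refers to the shedding of small cell pieces during cleavage. All came from oocytes fertilized in vitro, were labelled as non-multipolar in their divisions, were cultured for 6 to 8 days, and had the zona pellucida removed before RNA was taken from the whole embryo. Each diet belongs to 1 stimulation cycle, so diet and cycle cannot be told apart, and several blastocysts came from each female, whose identity was not used here. The total gene count ran from 10037852 to 29865336 per blastocyst.

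A blastocyst holds an outer trophectoderm, which forms placenta, and an inner cell mass that divides into epiblast and primitive endoderm. Markers of each were present. Of the listed trophectoderm markers, 6 of 7 were found in the table by symbol and 5 had a median of at least 1 CPM, with the keratin gene KRT18 highest at 5546 CPM. The 4 epiblast markers in the table were led by POU5F1 at 590.2 CPM, and the 5 primitive endoderm markers by GATA6 at 348.4 CPM. Of 4 markers of maternal cumulus and granulosa cells, none reached a median of 1 CPM, and FSHR, INHBA and FOXL2 had a median of 0. These levels fit the blastocyst label, with the maternal markers at or near 0. In whole embryos, fewer cells of a type and less RNA per cell cannot be told apart.

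Enolase 1, the glycolytic enzyme encoded by ENO1, came first in the CPM order that chose the members, an order in which transcript length also counts. Its level ranged from 2319 CPM in SCD 5 to 5407 CPM in WSD 4, with a median of 3568 CPM, which was rank 8 in the table. The unnamed gene ENSMMUG00000054358 came next at a median of 2471 CPM, with a lowest value of 629.6 CPM in WSD 12 and a highest value of 17771 CPM in SCD 3. HSP90AA1, which encodes an inducible cytosolic chaperone, followed at 1909 CPM. The histone H3.3 gene H3-3B had a median of 1248 CPM and FDFT1, whose product makes squalene at the entry to sterol synthesis, 1197 CPM. Because long transcripts yield more fragments, CPM per kilobase of mRNA is the scale on which levels of different genes compare. It was available for the 181 members with a RefSeq mRNA length, which leaves out ENSMMUG00000054358 and H3-3B. Among these 181, ENO1 was highest at 1974 CPM per kb, followed by the vesicle traffic GTPase ARF1 at 1204, the nuclear transport GTPase RAN at 1040, the fatty acid carrier FABP5 at 1014 and the actin monomer binding protein TMSB10 at 861.0 CPM per kb. The values of FABP5 and TMSB10 are uncertain, because much of their sequence also occurs elsewhere in the genome, as given below. Smaller shares of the read-length stretches of ARF1 (26.9%) and ENO1 (16.0%) occur elsewhere too, and each has 2 further loci. Their values are therefore also uncertain, to a lesser degree.

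High-numbered genes as a class were mostly low or silent. A median of at least 1 CPM was reached by 10.6% of them and by 49.9% of the 20043 lower-numbered genes. They made up 2 of the 20 genes of highest median CPM in the table and 11 of the top 100, and took 9.35% ± 1.18 (SD, n = 31) of all counts. The 200 members took most of that share, at 6.28% ± 0.834 (SD, n = 31). After SCD the members took between 4.90% in SCD 5 and 7.89% in SCD 3, with a median of 5.77%, and after WSD between 5.6% in WSD 17 and 8.31% in WSD 16, with a median of 6.18%. The ranges overlapped over most of their length. SCD 3 also stood apart in the number of genes with a count, 25762, against a median of 20109 for all SCD blastocysts.

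Each member was set beside the lower-numbered gene of nearest median CPM, giving 200 comparison genes. All 200 members and all 200 comparison genes had at least 1 count in every blastocyst. Both lists were chosen at a high level, which all but fixes this outcome, so detection cannot compare them. The lowest count of any member was 107, and 198 members stayed above 10 CPM in each blastocyst. The members' summed share of counts varied more between blastocysts (SD 0.834 percentage points) than that of the comparison genes (6.07% ± 0.240, n = 31). Single genes showed a smaller gap. The SD of log2 CPM over the 31 blastocysts had a median of 0.56 for the members and 0.47 for the comparison genes, and the member was the more variable gene in 120 of the 200 pairs. In 5 alternatives the gap between the medians was smaller, at 0.045 to 0.076. An SD above 1 was found in 19 members and 6 comparison genes. As a group the 10 unnamed members were more variable than the named, with a median SD of 0.93 (0.44 to 1.95) and 5 above 1. The 190 named members had a median of 0.55 and 14 above 1. Members also had the higher median SD within each diet, at 0.52 against 0.46 for comparison genes after SCD and 0.52 against 0.45 after WSD. It was also higher within each fragmentation class, at 0.54 against 0.45 in fragmented and 0.59 against 0.50 in non-fragmented blastocysts. These are descriptions of lists chosen on the same libraries, and no test was made of the gap between members and comparison genes.

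**Figure D1:**
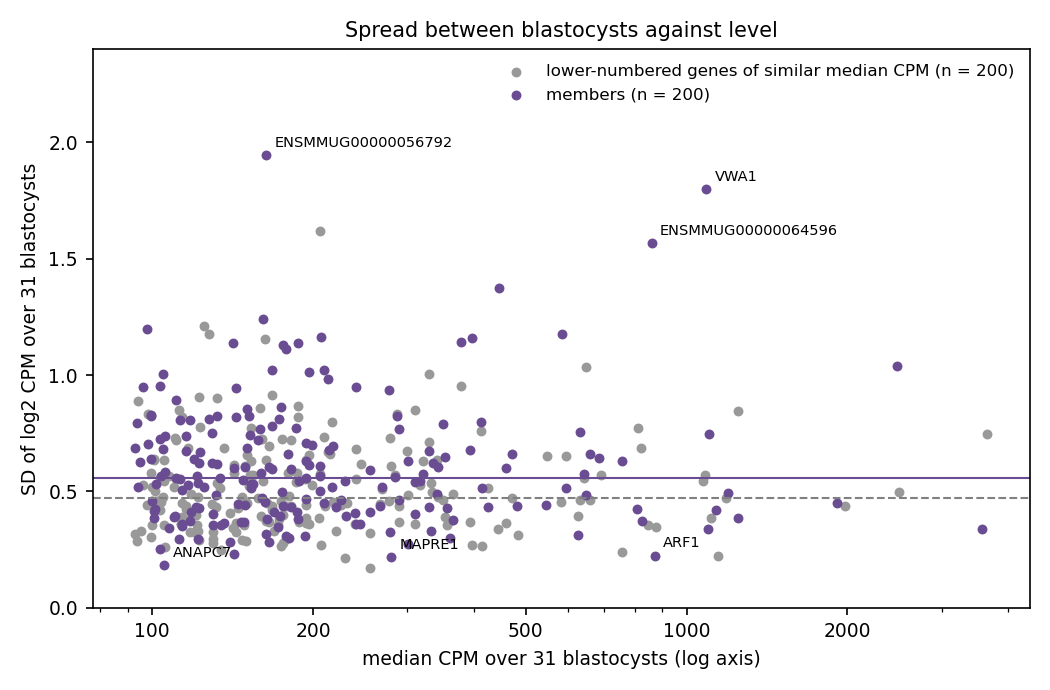
Median CPM over 31 blastocysts (x axis, log scale) against the SD of log2 CPM (y axis) for the 200 members and the 200 lower-numbered genes of similar level, 1 point per gene. The solid line marks the members' median of 0.56 and the dashed line the comparison genes' median of 0.47. Above 1.5 lie 3 members and the comparison gene S100A16 (1.62).

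The most variable member was the unnamed gene ENSMMUG00000056792, from 4.50 CPM in WSD 3 to 623.5 CPM in WSD 8. VWA1, an extracellular matrix protein gene, ranged from 9.47 CPM in SCD 3 to 4945 CPM in WSD 3, and the unnamed gene ENSMMUG00000064596 from 49.4 CPM in SCD 3 to 4107 CPM in WSD 3. SD values were 1.95, 1.80 and 1.57 on the log2 scale. At the other end, ANAPC7, a subunit of the anaphase-promoting complex, stayed between 73.7 and 127.8 CPM with an SD of 0.18. MAPRE1, which tracks growing microtubule ends, had an SD of 0.22 and a range of 211.9 to 383.6 CPM, and ARF1 had an SD of 0.22 with values between 675.9 and 1357 CPM.

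In gene structure the members were the more compact genes. Of the 200 members, 181 were located by symbol in the RefSeq annotation of Mmul_10, all of them protein-coding, and 196 of the 200 comparison genes. The median member had 5 exons, an mRNA of 1812 bases and a gene of 15609 bases, against 11 exons, 2701 and 27824 bases in the comparison genes. Members with 5 exons or fewer had a median SD of 0.60 (97 genes) and those with 6 or more 0.49 (84 genes), and the comparison genes split the same way, at 0.51 (27 genes) and 0.47 (169 genes). The authors' counts rest on reads that align to 1 place, so copies elsewhere in the genome lower a gene's count. At least 1 further locus, of 90% identity or more over at least 50% of the mRNA, was found for 39 of 181 members (21.5%) and 37 of 196 comparison genes (18.9%). In 5 members more than 50% of the 75-base stretches of the mRNA, the length of a read, occurred unchanged elsewhere. These were FABP5 (86.6%), the ribosomal protein genes RPS20 (78.2%) and RPL14 (65.8%), TMSB10 (57.3%) and the cytochrome c gene CYCS (54.5%), and their levels are uncertain. The proapoptotic gene BAK1 had 1 further locus of 99.4% identity on the scaffold chr14_2309X2336_random, with 44.3% of its stretches shared. TMSB10 shows the limit at its plainest, because all 58 of the 75-base stretches in its coding sequence of 132 bases also lie on chromosome 4. The first 75 coding bases, at chr13:23582717-23582791 on the minus strand of Mmul_10, are shown because a read of this sequence matches chr4:146720536-146720610 equally well.
TMSB10: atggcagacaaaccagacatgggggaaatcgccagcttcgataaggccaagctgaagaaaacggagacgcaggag

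All 200 members passed the filter on low counts, as did 13184 genes in all, and edgeR's quasi-likelihood test was used between the diets, with p-values adjusted over all of these genes by the method of Benjamini and Hochberg. At an adjusted p under 0.05, 8 members (4.0%) were called, against 2.08% of all genes tested and 4 of the 200 comparison genes (2.0%). DNAJC15, DUSP1, ENSMMUG00000064596, MTRES1 and ABT1 were higher after WSD (5 members, 2.50%, against 1.18% of all genes), and BASP1, SPINT1 and EDEM1 were lower (3 members, 1.5%, against 0.895%). Without adjustment, 72 members (36.0%) had a p under 0.05, against 21.9% of all genes, with 58 higher (11.1% of all genes) and 14 lower (10.8% of all genes). Of the comparison genes 58 (29.0%) had one, 37 higher and 21 lower, so genes of like level also lay above the share of all genes. The estimated change was positive in 140 of 200 members, with a median log2 fold change of 0.19. It was positive in 113 of the 200 comparison genes, with a median of 0.06, and in 48.2% of all genes tested, with a median of -0.02.

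**Figure D2:**
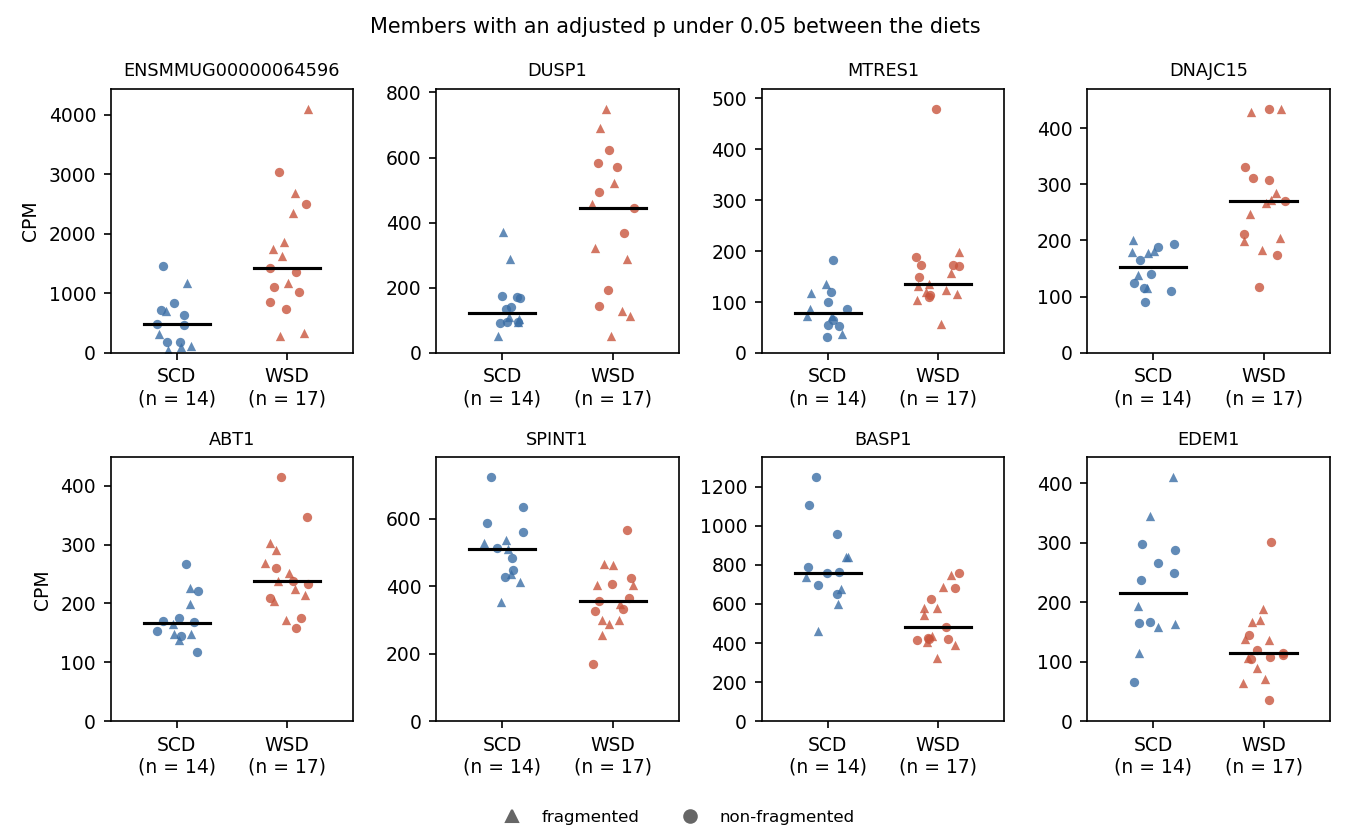
CPM (y axis, linear from 0) of the 8 called members in the 14 SCD and 17 WSD blastocysts, 1 point per blastocyst, triangles for fragmented and circles for non-fragmented, with the median of each diet as a line. The diets overlap in each panel, and both fragmentation classes are spread through each cloud.

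The lowest adjusted p belonged to DNAJC15, a J-domain cochaperone of the import motor of the mitochondrial inner membrane. It ranged from 91.2 to 200.1 CPM after SCD (median 153.1) and from 117.9 to 434.7 CPM after WSD (median 270.5). In 13 of 17 WSD blastocysts it lay above every SCD blastocyst, although the groups overlapped at the low end. The log2 fold change was 0.88 (SE 0.17, adjusted p = 0.0158, edgeR). MTRES1, which protects mitochondrial transcription under stress, ranged from 30.98 to 181.6 CPM after SCD (median 79.3) and from 57.2 to 480.0 CPM after WSD (median 135.2). Of the WSD blastocysts 16 of 17 were above the SCD median, and WSD 16 was far above the rest. The log2 fold change was 0.92 (SE 0.25, adjusted p = 0.0437, edgeR).

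DUSP1 encodes an immediate early phosphatase that switches off MAP kinases. It ranged from 52.5 to 372.6 CPM after SCD, with a median of 123.3, and from 51.7 to 750.4 CPM after WSD, with a median of 444.2. Most WSD blastocysts were high, 9 of 17 above every SCD blastocyst, but WSD 7 lay just below the lowest SCD blastocyst. The log2 fold change was 1.41 (SE 0.30, adjusted p = 0.0187, edgeR). The largest fold change among the called members was that of ENSMMUG00000064596, with SCD values from 49.4 to 1463 CPM (median 482.5) and WSD values from 282.0 to 4107 CPM (median 1432). Low values were found in both diets and values above 1463 CPM in WSD alone. The log2 fold change was 1.64 (SE 0.40, adjusted p = 0.0303, edgeR). ABT1, a nucleolar protein of ribosome assembly, ranged from 117.1 to 267.6 CPM after SCD (median 166.8) and from 158.8 to 415.3 CPM after WSD (median 238.1), a small shift in which 16 of 17 WSD blastocysts exceeded the SCD median (log2 fold change 0.52, SE 0.14, adjusted p = 0.0475, edgeR).

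Among the members that fell, BASP1, a membrane-bound protein of the actin-rich cell cortex that also acts as a transcriptional corepressor, ranged from 461.2 to 1251 CPM after SCD (median 760.0) and from 323.2 to 758.2 CPM after WSD (median 481.9). All 17 WSD blastocysts lay below the SCD median. The log2 fold change was -0.59 (SE 0.14, adjusted p = 0.0298, edgeR). SPINT1, an inhibitor of matriptase and other membrane serine proteases in epithelia and trophoblast, had SCD values from 351.7 to 724.1 CPM (median 511.5) and WSD values from 168.0 to 566.1 CPM (median 357.2), with a log2 fold change of -0.48 (SE 0.13, adjusted p = 0.0450, edgeR). EDEM1, an endoplasmic reticulum protein, hands misfolded glycoproteins to degradation. It had SCD values from 66.0 to 411.1 CPM (median 215.2) and WSD values from 35.1 to 301.2 CPM (median 115.5). Its log2 fold change was -0.81 (SE 0.22, adjusted p = 0.0492, edgeR). With fragmentation class as a covariate SPINT1 missed the threshold (adjusted p = 0.0503, edgeR). For both genes, 16 of 17 WSD blastocysts were below the SCD median while the ranges overlapped widely.

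With each blastocyst left out in turn, DNAJC15 and DUSP1 kept an adjusted p under 0.05 in all 31 fits, BASP1 in 28 and ENSMMUG00000064596 in 27, whereas SPINT1, ABT1, EDEM1 and MTRES1 kept it in 14, 13, 12 and 12. BASP1 missed it without SCD 1, SCD 9 or SCD 10 (highest adjusted p = 0.0609, edgeR) and ENSMMUG00000064596 without SCD 5, SCD 9, SCD 10 or SCD 12 (highest 0.0598). For SPINT1, ABT1, EDEM1 and MTRES1 the highest adjusted p was 0.0805, 0.0878, 0.0925 and 0.0805, and each missed the threshold without any 1 of SCD 1, 4, 5, 9, 10 and 12 and WSD 1, 2, 3, 5, 11, 12, 14, 15 and 16, among others. All 8 kept it without SCD 3, which had the most genes with a count. The number of genes with a count was 20064 ± 2225 (SD, n = 14) after SCD and 17786 ± 1775 (SD, n = 17) after WSD. With that number as a covariate, 0 members and 0 genes of the table were called by edgeR (22 members had an unadjusted p under 0.05, as had 7.90% of all genes), with adjusted p-values of the 8 between 0.387 and 0.603. Their log2 fold changes were then 0.83 for DNAJC15, 1.25 for DUSP1, 1.15 for ENSMMUG00000064596, 0.63 for MTRES1, 0.40 for ABT1, -0.47 for BASP1, -0.46 for SPINT1 and -0.70 for EDEM1. Its part in the diet differences cannot be told apart from diet here. RefSeq places DNAJC15 at chr17:21597508-21690955 and DUSP1 at chr6:170168726-170171764. BASP1 is at chr6:17465771-17525571, SPINT1 at chr7:17306391-17319701, ABT1 at chr4:143350146-143352372 and EDEM1 at chr2:136481011-136509794, and none of these 6 genes had a further locus of the kind described above. MTRES1 and ENSMMUG00000064596 were not located.

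The members were also described by role, in groups made after their symbols and values were known and given no test. The counts below stand beside the 48.2% of all genes with a positive estimate and the 21.9% with an unadjusted p under 0.05 given above. Among the 200 members these shares were 70% and 36.0%, so a role near them does not stand out from the members. No role was assigned to 86 members, of which 57 were positive, with a median log2 fold change of 0.09. Most mitochondrial proteins are encoded by nuclear genes, and a separate mitochondrial ribosome translates the few encoded by the mitochondrial genome. All 9 members of the mitochondrial ribosome had a positive log2 fold change, between 0.32 and 0.72 with a median of 0.52. None was called (0 of 9), and 8 had an unadjusted p under 0.05, against 21.9% of all genes and 36.0% of the members. MRPS26, a small subunit protein gene, had a median of 141.0 CPM after SCD (81.2 to 275.9) and 236.3 CPM after WSD (118.1 to 515.0), with a log2 fold change of 0.72 (SE 0.21, adjusted p = 0.0518, edgeR). MRPS7 had a median of 155.2 CPM (79.98 to 265.9) and 238.2 CPM (151.2 to 607.5), with a log2 fold change of 0.64 (SE 0.19, adjusted p = 0.0627, edgeR). Both had WSD 16 as their highest blastocyst and overlapped between the diets.

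The other 22 members that encode mitochondrial proteins also had a positive log2 fold change in each case, with a median of 0.42. Besides DNAJC15 and MTRES1, which were called, the estimates were 0.40 for the import receptor TOMM20 (SE 0.11, adjusted p = 0.0518, edgeR) and 0.69 for GRPEL1, the nucleotide exchange factor of the import motor. Complex I subunit gene NDUFB10 had an estimate of 0.67 and ATP synthase subunit gene ATP5F1D of 0.52. The lowest was 0.04, for the ADP/ATP carrier gene SLC25A6. Of these 31 mitochondrial members, 31 stayed positive without SCD 3, with a median of 0.56, 31 stayed positive without WSD 16, with a median of 0.37, and 30 with the count of detected genes as covariate, with a median of 0.35. With that covariate 6 of the 31 had an unadjusted p under 0.05 and 0 were called, against 21 and 2 without it, and the share of all genes with such a p was 7.90% with the covariate. Positive estimates numbered 30 without SCD 5, without WSD 8, or with the replicate number as a block. The number called became 15 without SCD 14 (6.22% of all genes called). It became 1 without any 1 of SCD 1, 4, 5, 6, 9, 10, 11 and 12. The same held for WSD 1, 2, 3, 5, 10, 11, 12, 14, 15 and 16. In those fits 0.451% (without SCD 10) to 2.03% (without WSD 10) of all genes were called. Over the whole table, 65 of 66 tested genes with an MRPS or MRPL symbol had a positive log2 fold change, with a median of 0.47, and 1, MRPL45, was called. Among the 58 of these that are not members, 57 were positive, also with a median of 0.47.

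**Figure D3:**
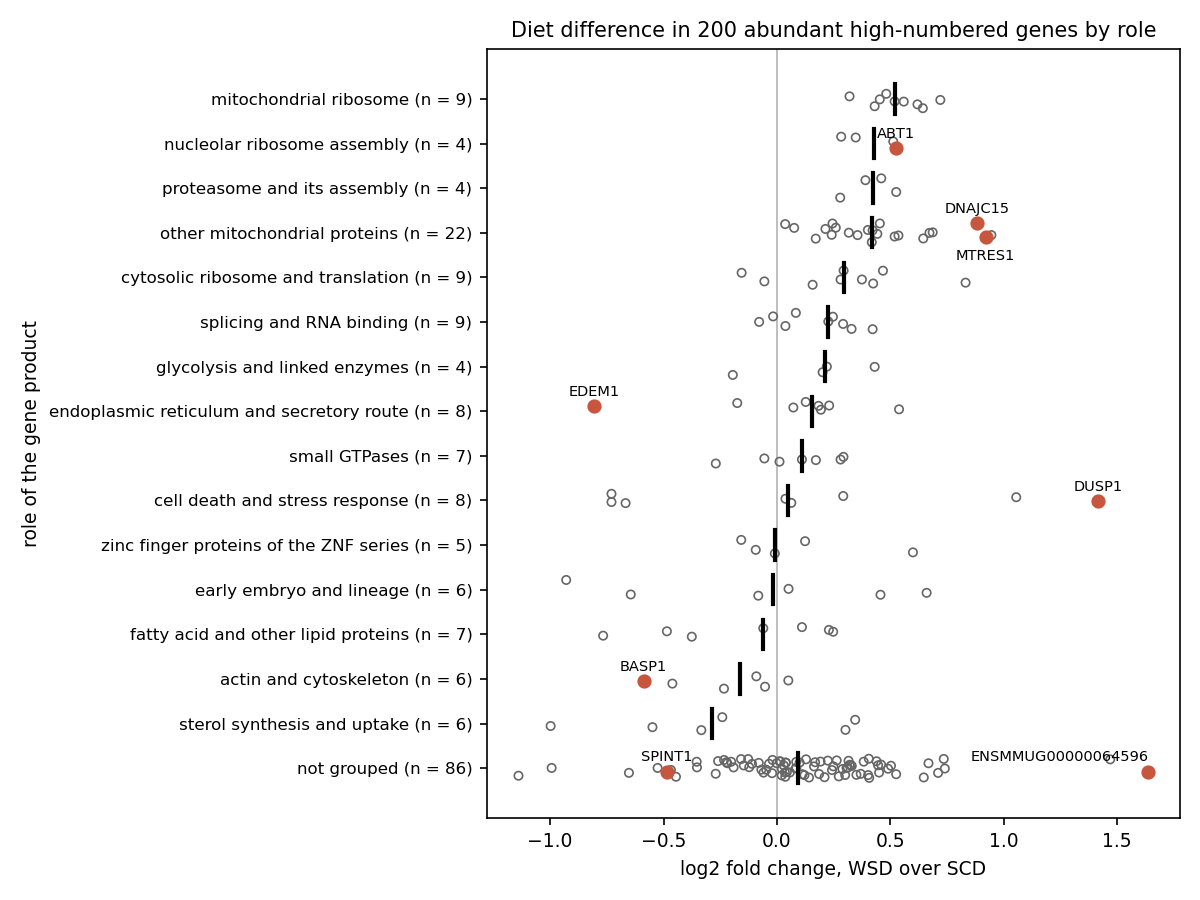
Log2 fold change between the diets (x axis, WSD over SCD) of the 200 members by role (y axis), 1 point per gene, with filled points for the 8 called members and a bar at the median of each role. The 31 mitochondrial members all lie to the right of 0, and the sterol and actin groups have medians of -0.29 and -0.16.

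The 4 proteasome members (POMP, PSMA5, PSMB7 and PSMG2) and the 4 members of nucleolar ribosome assembly all had positive estimates, with medians of 0.42 and 0.43, and in the latter ABT1 was called. Of the 9 members for cytosolic ribosomes and translation 7 were positive, with a median of 0.29 and 0 called. Of 9 splicing and RNA binding members 7 were positive, with a median of 0.23 and 0 called. Secretory route members were positive in 6 of 8 cases, with a median of 0.15 and EDEM1, one of the exceptions, called. The estimate was positive in 3 of 4 glycolysis members (median 0.21, 0 called), 5 of 7 small GTPases (median 0.11, 0 called), 5 of 8 members of cell death and stress response (median 0.05, DUSP1 called), 2 of 5 zinc finger members (median -0.01, 0 called) and 1 of 6 actin and cytoskeleton members (median -0.16, BASP1 called). In cell death and stress response BAK1 had an estimate of 1.05 (SE 0.33, adjusted p = 0.0712, edgeR).

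Of 6 members for sterol synthesis and uptake 4 had negative estimates, with a median log2 fold change of -0.29 and 0 called. INSIG1, which holds the SREBP precursor in the endoplasmic reticulum when sterols are plentiful and is itself an SREBP target, had SCD values from 215.3 to 1148 CPM (median 650.8) and WSD values from 73.2 to 931.5 CPM (median 273.3), with 16 of 17 WSD blastocysts below the SCD median. Its log2 fold change of -0.998 (SE 0.325) missed the threshold at an adjusted p of 0.0789 (edgeR). The synthesis enzymes FDFT1, MSMO1 and SC5D had estimates of -0.24, -0.33 and -0.55, none called, and TMEM97, which acts in cholesterol traffic, had 0.34. Over the whole table, 15 of 17 tested genes of cholesterol synthesis had negative estimates, with a median of -0.33 and 0 called. Of 7 members for fatty acids and other lipids 3 were positive, with a median of -0.06 and 0 called. Among them ELOVL6, which lengthens long-chain fatty acids, had an estimate of -0.77 (SE 0.34, adjusted p = 0.178, edgeR).

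Among the genes of early embryo and lineage, CDX2, a transcription factor of trophectoderm, had SCD values from 49.0 to 366.9 CPM (median 218.0) and WSD values from 20.8 to 318.1 CPM (median 86.2). The log2 fold change was -0.93 (SE 0.32, adjusted p = 0.0962, edgeR). DPPA3, a maternal factor that protects DNA methylation in the early embryo, had an estimate of 0.66 (SE 0.20, adjusted p = 0.0597, edgeR), with medians of 560.0 CPM after SCD and 899.0 CPM after WSD. DPPA5 had an estimate of 0.46, KIT of -0.08, MYCN of 0.05 and CDX1, a homeobox gene related to CDX2, of -0.64. Of the 6 genes of this group 3 were positive and 3 negative, with a median of -0.02 and 0 called. The 6 trophectoderm markers in the table, CDX2 among them, summed to a median of 8535 CPM after SCD (3611 to 11462) and 4592 CPM after WSD (1579 to 15577), led by KRT18, while the 4 epiblast markers summed to 549.7 CPM (427.8 to 1147) and 827.4 CPM (314.5 to 1416), and the 5 primitive endoderm markers to 634.9 CPM (324.3 to 918.1) and 527.2 CPM (367.9 to 782.2). All 5 tested trophectoderm markers had negative estimates, with log2 fold changes of -1.23 for GATA2, -0.93 for CDX2, -0.54 for GATA3, -0.51 for KRT18 and -0.39 for TFAP2C. The 5 primitive endoderm estimates were also negative, from -1.12 for GATA4 to -0.02 for GATA6, and of the 4 epiblast estimates NANOG alone was negative (-0.10), with POU5F1 at 0.43. None of the 14 tested lineage markers was called, and the part of cell type balance in the members' changes was not tested.

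Correlations were taken between the 19 members with an SD above 1. Among their 171 pairs, 28 had a Pearson correlation of log2 CPM above 0.7 and 11 below -0.7, and the median was -0.01. Pairs of other genes are not given beside these counts. These members were also picked for their spread, so the counts cannot be called particular to them. CDX1 and CDX2, a pair of related homeobox genes, gave r = 0.93 (Spearman's rho = 0.90, n = 31) and INSIG1 and ELOVL6, both SREBP targets, r = 0.91 (rho = 0.91). INSIG1 and CDX2, from unlike roles, gave r = 0.87 (rho = 0.88). DUSP1 ran against all of these, with r = -0.91 (rho = -0.92) to INSIG1, r = -0.88 (rho = -0.90) to CDX2 and r = -0.86 (rho = -0.88) to ELOVL6. After the mean of each diet was subtracted the first pair of DUSP1 kept r = -0.88 and the second r = -0.84, and without the 2 blastocysts farthest from the median of INSIG1 the first was -0.91. VWA1 and ENSMMUG00000064596 moved together at r = 0.90 (rho = 0.90), BAK1 followed DUSP1 at r = 0.78 (rho = 0.82), and BAK1 ran against ENSMMUG00000056792 at r = -0.86 (rho = -0.91). These correlations describe pairs picked for their size, over blastocysts that share females and diets, and carry no p.

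**Figure D4:**
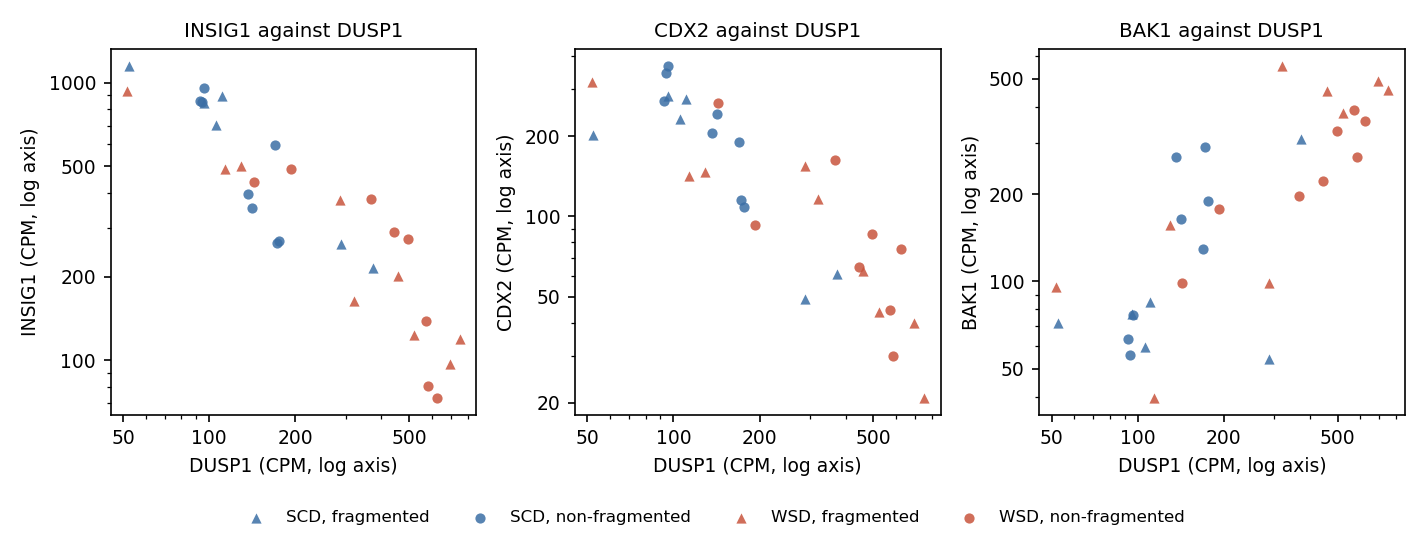
CPM of INSIG1, CDX2 and BAK1 (y axes, log scale) against CPM of DUSP1 (x axes, log scale) in 31 blastocysts, 1 point each, coloured by diet and shaped by fragmentation class. INSIG1 and CDX2 fall along DUSP1 in both diets (r = -0.91 and -0.88 on log2 CPM), and BAK1 is low in most blastocysts with low DUSP1.

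The 250 bases before the RefSeq start of each protein-coding gene were searched on both strands for the letters TGACGTCA (the cAMP response element), CCGGAAG (a site of ETS factors), GCGCATGC (a site of NRF1) and TCACNCCAC (a sterol regulatory element). The printed promoters hold 1 match each, so no matches overlap there. TGACGTCA stood before 4 of 180 members (2.22%), 4 of 196 comparison genes (2.04%) and 1.47% of 20760 genes, and DUSP1 was among them. CCGGAAG stood before 23 of 180 members (12.8%), 26 of 196 comparison genes (13.3%) and 7.04% of all genes, and among the mitochondrial members before 5 of 28 (17.9%). GCGCATGC stood before 4 of 180 members (2.22%), 1 of the 28 mitochondrial members (3.57%), 8 of 196 comparison genes (4.08%) and 2.46% of all genes. TCACNCCAC stood before 2 of 180 members (1.11%), 2 of 196 comparison genes (1.02%), 0 of the 6 sterol members and 1.46% of all genes. TGACGTCA stood before 0 of the 28 mitochondrial members. The promoters of DUSP1, MRPS26 and TOMM20 are printed because they belong to the genes described above and hold a match, in capitals, at chr6:170171765-170172014 (minus strand), chr10:63457286-63457535 (minus strand) and chr1:13899476-13899725 (plus strand) of Mmul_10. A match is a run of letters and was not tested as a binding site.
DUSP1: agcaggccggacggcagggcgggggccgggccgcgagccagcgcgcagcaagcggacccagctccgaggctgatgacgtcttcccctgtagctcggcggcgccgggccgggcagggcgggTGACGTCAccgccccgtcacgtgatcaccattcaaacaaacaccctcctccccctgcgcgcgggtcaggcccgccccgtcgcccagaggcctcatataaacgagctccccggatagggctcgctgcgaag
MRPS26: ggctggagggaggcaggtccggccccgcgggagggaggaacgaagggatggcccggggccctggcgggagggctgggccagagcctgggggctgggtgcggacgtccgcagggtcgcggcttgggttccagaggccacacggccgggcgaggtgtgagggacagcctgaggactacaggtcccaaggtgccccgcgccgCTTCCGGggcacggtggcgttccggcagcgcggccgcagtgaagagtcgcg
TOMM20: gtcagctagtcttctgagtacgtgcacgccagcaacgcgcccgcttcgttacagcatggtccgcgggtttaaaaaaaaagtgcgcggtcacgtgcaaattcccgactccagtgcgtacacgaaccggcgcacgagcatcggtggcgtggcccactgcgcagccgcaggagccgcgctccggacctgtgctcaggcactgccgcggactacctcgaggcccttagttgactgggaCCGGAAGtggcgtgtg

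With diet in the model, 0 members were called between fragmented and non-fragmented blastocysts by edgeR, as was 0% of all genes. Without adjustment 1 member, MPV17L2, a protein of mitochondrial ribosome assembly, had a p under 0.05 (0.50%), against 3.26% of all genes (2.42% higher in fragmented blastocysts and 0.842% lower). MPV17L2 had a log2 fold change of -0.34 (SE 0.16, fragmented over non-fragmented). The estimates of the members were small and mostly negative, with 63 of 200 positive and a median of -0.07, against 92 of the comparison genes (median -0.01) and 53.4% of all genes (median 0.02). The 8 members called for diet had fragmentation estimates between -0.37 for MTRES1 and 0.12 for DNAJC15.

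The diet difference was estimated within each class as well. In non-fragmented blastocysts (8 and 8) 140 of 200 members were higher after WSD, with a median log2 fold change of 0.28, and in fragmented blastocysts (6 and 9) 125 were, with a median of 0.12. For the comparison genes these counts were 105 (median 0.02) and 123 (median 0.08), so in fragmented blastocysts the members' count was close to theirs. Of all genes 48.7% and 48.8% were higher. The sign was the same in both classes for 149 members (74.5%), 140 comparison genes (70.0%) and 66.5% of all genes. The classes share no blastocyst, but they share stimulation cycles, were fitted together and may share females. Like signs are therefore not an independent check. DNAJC15 had estimates of 0.96 and 0.78 and DUSP1 of 1.69 and 1.12 in the non-fragmented and fragmented class. For the difference between the classes, the diet by fragmentation term called 0 members, as it did 0% of all genes (edgeR), and 0 members had an unadjusted p under 0.05, against 3.29% of all genes (1.63% higher and 1.66% lower).

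Spread within groups was compared by limma on the absolute deviation of log2 CPM from the group median. Between the diets 0 members were called, as was 0% of all genes, and 4 had an unadjusted p under 0.05 (2.0%, against 3.9% of all genes, 3.19% with more and 0.705% with less spread after WSD). In RHOV, GPRC5A and GLTP the mean deviation was larger after WSD, by 0.43, 0.41 and 0.52 on the log2 scale, and in the calcium-binding mitochondrial protein gene EFHD1 it was smaller (-0.57). Between the fragmentation classes 0 members were called, as was 0% of all genes, and 2 had an unadjusted p under 0.05 (1.0%, against 2.11% of all genes, 0.933% with more and 1.18% with less spread). These were DPPA5, less spread in fragmented blastocysts (-0.51), and ELOVL6, more spread (0.54).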

How the data were processed

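Single blastocysts were sequenced by the authors (SMART-Seq v4, 16 cycles of library amplification, single reads of 75 cycles). Per the labels, reads were trimmed with Trimmomatic 0.39 and aligned with STAR 2.7.0 to Mmul_10, and the authors deposited raw counts of reads per Ensembl gene, not normalized. The strand column used is not given in the sources used here, and reads of overlapping genes on opposite strands cannot be separated. Columns were matched to blastocysts by name, with 0 left over. Reads carried no molecular identifiers.

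The members, roles, gene lists and motifs were chosen with earlier results of these data known. Symbols came from a table that pairs 24173 of the identifiers with names, and gene structure from RefSeq on Mmul_10, matched by symbol. Further loci were found with minimap2 2.31-r1302. Counts were tested with edgeR 4.0.16 in R 4.3.3 (quasi-likelihood F test, legacy = TRUE, filterByExpr by diet, TMM), and spread with limma 3.58.1. Each SE came from the log2 fold change and its F statistic (their ratio after taking the root of F). log2 CPM had a prior count of 2. Named genes were the 5 most abundant members, the members at rank 200 and next after it, all called members, the 3 most and 3 least variable members, and members grouped by role. Genes outside this rule were named after their values were seen. Blastocysts were treated as independent, so p-values measure the spread between blastocysts, and females were not separated. Alternatives were DESeq2 1.42.0, RLE and total count scaling, other filters and forms of the test, covariates, the replicate number as a block, other memberships and each blastocyst left out. Replicate numbers were shared by 13 pairs, whose deviations had a mean correlation of 0.0234 (-0.4193 to 0.2623). The scripts were tested on simulated data.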

Additional observations from a re-analysis of the deposited data

Results flagged for a closer look

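Within the 4 groups of diet and fragmentation class, 19 measures (the members' share of counts and the CPM of 18 members) were searched for a single blastocyst far from its group, and 8 of 76 group and measure combinations had one. Chance flags about 1 in 20 groups of independent, unselected measures, and these measures were partly chosen for their spread or their diet difference and vary together, so that rate is no yardstick for the 8. WSD 8 accounted for 4 of the 8, among the 9 fragmented WSD blastocysts. Its members took 8.10% of counts (next 6.53%), and it had 9024 CPM of ENSMMUG00000054358 (next 4018), 3843 CPM of HSP90AA1 (next 2079) and 623.5 CPM of ENSMMUG00000056792 (next 299.8). SCD 3, among the 6 fragmented SCD blastocysts, had 17771 CPM of ENSMMUG00000054358 (next 5748). Among the 8 non-fragmented WSD blastocysts, WSD 16 had 480.0 CPM of MTRES1 (next 188.5) and WSD 9 had 301.2 CPM of EDEM1 (next 144.5). SCD 8 had 1357 CPM of ARF1 (next 971.8) among the 8 non-fragmented SCD blastocysts. The causes were not tested.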

How the results depend on the processing

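The 8 members called between the diets (5 higher, 3 lower) became 28 with DESeq2 (21 higher, 7 lower), 23 with legacy = FALSE (18 and 5), 26 with no filter (21 and 5), 5 with log10 library size as a covariate (4 and 1), 0 with detected genes as a covariate (0 and 0), and 12 with fragmentation class as a covariate or a filter of 1 CPM in 14 blastocysts (9 and 8 higher), where the fragmentation covariate kept 7 of the 8 and lost SPINT1. The share of all genes called moved with these counts, from 2.08% to 7.24%, 7.27%, 6.81%, 1.55%, 0%, 2.59% and 2.98% in the same order. The library size covariate kept 5 of the 8 calls. Total count scaling called 9 members (2.04% of all genes) and kept 7 of the 8. With the replicate number as a block, 1 member (1 higher, 0 lower) and 0.0548% of all genes were called over 13 pairs, and the same blastocysts without the block, added after the data were seen, gave 10 (8 higher) and 2.46%, while the numbers did not pair the blastocysts, with 4 of 13 correlations over 0.1. With 400 members 13 were called (9 higher), and with an identifier number of 60000 or more 7 were called (3 higher, 4 lower). With each blastocyst left out, between 2 and 34 members were called (2 to 29 higher, 0 to 6 lower), the most without SCD 14 (6.22% of all genes) and the fewest without SCD 9 (0.512%) or SCD 10 (0.451%). Counts above 12 came without SCD 3 (15, with 3.23% of all genes), SCD 7 (20, 4.01%) and SCD 13 (13, 2.87%). The same held for WSD 6 (13, 3.13%), WSD 7 (22, 4.56%) and WSD 8 (18, 4.21%). It also held for WSD 9 (13, 3.2%), WSD 17 (18, 3.99%) and WSD 18 (19, 3.74%). Counts of 5 or fewer came without SCD 1 (3, with 0.826% of all genes), SCD 5 (3, 0.672%) and SCD 12 (3, 0.765%). Leaving out SCD 4 gave 4 (0.916%) and leaving out SCD 11 gave 5 (1.66%). Without WSD 1, 2, 3, 5, 11, 12, 14, 15 or 16 there were 4, with 0.946% to 1.63% of all genes. The causes were not tested. No fold change of the 8 changed its sign in any setting.

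The members' share of counts was 4.90% with 100 members, 7.68% with 400 and 2.80% with an identifier number of 60000 or more. Members stayed more variable than comparison genes in the 5 alternatives, by 0.045 to 0.076 in median SD, each a smaller gap than in the main setting. The counts of 0 for fragmentation, its interaction with diet, and spread stayed at 0 in every alternative run. Without the filter the median of all genes moved to -0.27 on the log2 scale, and that of the members was 0.20.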
